A study of Mus musculus with 8 samples.

Results

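The proteasome subunit genes were taken by name: every RefSeq protein-coding mouse gene of the mm10 build whose symbol starts with Psma, Psmb, Psmc, Psmd, Psme, Psmf or Psmg followed by a number. The rule found 51 of 21887 protein-coding genes. By their known roles, 14 encode subunits of the core particle, 17 encode subunits of the regulatory particle, 4 encode activators, 4 encode chaperones of core assembly and 3 encode chaperones of regulatory particle assembly. Another 3 encode the immunoproteasome subunits, and Psmb11 (thymus), Psma8 (germ cells) and Psmf1 (an inhibitor) make up the rest of the complex. The remaining 3 genes, Psmc3ip, Psme3ip1 and Psme2b, share only the name pattern or are a copy of another member, and they were kept because the rule takes them.

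The study mapped binding of the chromatin remodelers Chd7 and Chd8 by ChIP-seq. The cells were O4-positive cells of the oligodendrocyte lineage, sorted on magnetic beads from wild-type mice at postnatal day 7, with cortex and corpus callosum given as the tissue and no treatment in any group. There were 2 Chd7 libraries (anti-Chd7 from Cell Signaling), 1 Chd8 library (anti-Chd8 from Bethyl), 2 mock libraries made with rabbit IgG and 3 libraries of input chromatin without antibody. The labels assign 1 mock to Chd7 replicate 1 and the other to both Chd7 replicate 2 and Chd8, so these share a control. The extraction notes say that O4 antibody was used to pull down the complexes, against the antibody labels of the samples, and the track names inside the files number Chd7 replicate 2 as 3 and Chd8 as 2. The titles were used, and both differences are unresolved. The labels do not say whether a library pools animals, or whether the Chd7 libraries are from separate ones. O4 marks late precursors and immature oligodendrocytes, so the sorted cells can span these stages.

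Each library is represented by the authors' broad peak list, with 5282 and 6292 peaks for Chd7 replicates 1 and 2, 18415 for Chd8, 89 and 98 for the mocks and 109486, 178478 and 91628 for the inputs. Reads were not used, so depth is unknown and a missing peak means only that none was listed. Fold, the enrichment of a peak over the local background of the peak caller, is the authors' value and is compared only within a list. Of 8 markers of the oligodendrocyte lineage, 6 had Chd8 at a gene end (Olig1, Olig2, Sox10, Pdgfra, Gpr17 and Nkx2-2, not Cspg4 or Myrf). The same held for 1 of 5 astrocyte, 2 of 5 neuronal, 1 of 5 microglial and 0 of 5 endothelial markers, beside 41% of all coding genes. Input 3, the input paired with Chd8, had a peak at 6 of the 8 lineage markers and at 2, 4, 1 and 2 of the 5 in the other lists, in that order, beside 45.2% of all coding genes. A peak is occupancy and not expression, so these counts do not measure the purity of the sort.

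The proteasome degrades proteins tagged with ubiquitin. Its core particle is a barrel of stacked rings, with outer rings of alpha subunits that gate the entrance and inner rings of beta subunits, of which Psmb5, Psmb6 and Psmb7 carry the proteolytic sites. The regulatory particle caps the barrel, binds and deubiquitinates substrates (Psmd subunits) and unfolds and feeds them into the core with a ring of ATPases (Psmc subunits). Cells exposed to interferon replace the catalytic subunits with Psmb8, Psmb9 and Psmb10, which form the immunoproteasome. Subunits are needed in fixed proportions, and their genes are known to be induced together by the transcription factor Nfe2l1 when proteasome activity is short.

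The promoters of 8 genes are shown because the results below turn on them or on their contrast. Each runs from 250 bases before to 50 bases after the annotated start, 5′ to 3′ on the strand of the gene, as RefSeq gives it for GRCm38.p6 (mm10). Psmd2 and Psmd8 had Chd7 in both replicates, Psmd9 had the Chd8 peak with the highest fold, Psmc1 is a regulatory ATPase gene with an ETS match, and Psmb5, Psmb6 and Psma2 are core genes. Psmb9 is an immunoproteasome gene without Chd8. Capitals mark matches on either strand to any of the motif letters described further down, other than the common GGGCGG and CCAAT, and a promoter wholly in lower case has no such match.
Psmd2 (mm10 chr16:20651402-20651701, plus strand): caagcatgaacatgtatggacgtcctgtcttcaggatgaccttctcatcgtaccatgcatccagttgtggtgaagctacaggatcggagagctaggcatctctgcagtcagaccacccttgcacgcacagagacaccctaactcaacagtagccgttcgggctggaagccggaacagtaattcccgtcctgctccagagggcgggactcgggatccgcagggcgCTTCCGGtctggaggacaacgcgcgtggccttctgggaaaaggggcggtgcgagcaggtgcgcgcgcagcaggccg
Psmd8 (mm10 chr7:29180624-29180923, minus strand): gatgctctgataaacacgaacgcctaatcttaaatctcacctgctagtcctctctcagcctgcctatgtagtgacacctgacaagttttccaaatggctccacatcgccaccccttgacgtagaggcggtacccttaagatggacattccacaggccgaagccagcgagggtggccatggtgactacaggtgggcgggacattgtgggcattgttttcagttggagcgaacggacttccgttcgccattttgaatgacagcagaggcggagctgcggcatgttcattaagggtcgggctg
Psmd9 (mm10 chr5:123227940-123228239, plus strand): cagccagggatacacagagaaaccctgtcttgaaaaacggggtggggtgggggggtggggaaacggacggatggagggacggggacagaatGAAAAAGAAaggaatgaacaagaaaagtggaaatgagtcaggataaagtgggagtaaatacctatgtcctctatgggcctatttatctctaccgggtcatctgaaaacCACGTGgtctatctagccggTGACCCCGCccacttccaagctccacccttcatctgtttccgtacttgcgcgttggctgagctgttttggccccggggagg
Psmc1 (mm10 chr12:100109952-100110251, plus strand): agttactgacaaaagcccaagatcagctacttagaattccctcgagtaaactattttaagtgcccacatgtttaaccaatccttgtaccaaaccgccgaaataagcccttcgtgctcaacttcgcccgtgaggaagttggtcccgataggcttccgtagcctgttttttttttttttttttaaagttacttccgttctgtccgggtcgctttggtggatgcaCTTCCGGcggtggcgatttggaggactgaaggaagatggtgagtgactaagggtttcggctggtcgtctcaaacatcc
Psmb6 (mm10 chr11:70525107-70525406, plus strand): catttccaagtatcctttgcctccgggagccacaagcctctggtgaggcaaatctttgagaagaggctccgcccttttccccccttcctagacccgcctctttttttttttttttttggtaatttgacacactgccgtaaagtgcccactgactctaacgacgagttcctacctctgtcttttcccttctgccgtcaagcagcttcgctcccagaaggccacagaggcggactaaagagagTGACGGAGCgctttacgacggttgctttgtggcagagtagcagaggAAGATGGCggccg
Psma2 (mm10 chr13:14612992-14613291, plus strand): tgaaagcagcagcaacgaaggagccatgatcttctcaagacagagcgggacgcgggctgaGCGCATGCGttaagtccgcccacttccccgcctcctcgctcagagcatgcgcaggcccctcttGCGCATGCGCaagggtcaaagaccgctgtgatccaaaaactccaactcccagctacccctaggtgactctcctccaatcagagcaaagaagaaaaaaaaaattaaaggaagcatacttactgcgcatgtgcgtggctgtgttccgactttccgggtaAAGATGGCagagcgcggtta
Psmb5 (mm10 chr14:54617946-54618245, minus strand): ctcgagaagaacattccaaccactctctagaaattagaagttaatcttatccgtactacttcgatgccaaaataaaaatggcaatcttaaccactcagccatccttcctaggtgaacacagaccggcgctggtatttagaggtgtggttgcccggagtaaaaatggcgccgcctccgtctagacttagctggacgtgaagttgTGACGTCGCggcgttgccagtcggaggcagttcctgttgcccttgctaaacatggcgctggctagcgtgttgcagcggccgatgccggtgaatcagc
Psmb9 (mm10 chr17:34187281-34187580, minus strand): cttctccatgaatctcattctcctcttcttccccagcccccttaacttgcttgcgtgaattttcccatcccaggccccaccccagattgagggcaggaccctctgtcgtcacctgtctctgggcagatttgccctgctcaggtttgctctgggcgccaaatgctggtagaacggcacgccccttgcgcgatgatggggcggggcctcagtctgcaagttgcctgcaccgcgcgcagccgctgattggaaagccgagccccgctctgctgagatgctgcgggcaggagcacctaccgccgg

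Chd8 was listed at the ends of nearly all genes of the standing proteasome and of none of the 3 immunoproteasome genes. A gene was called where a peak overlapped, by at least 1 bp, the window of 1 kb around either boundary of the gene, after removal of peaks that touched a mock peak. Of the 51 genes, 42 had such a Chd8 peak (82.4%, exact Clopper-Pearson 95% interval 69.1 to 91.6), beside 41% of all protein-coding genes. No test was made, because Chd8 has 1 library and genes of 1 pathway are not replicates; the intervals cover counting error only and treat genes as independent. Without the 3 genes matched by name alone, the count was 40 of 48 (83.3%). Input chromatin also had peaks at these genes: 39 of the 51 (76.5%) had a peak of input 3, the input the labels pair with Chd8, beside 45.2% of all coding genes. When Chd8 peaks that overlapped a peak of input 3 were removed, 11 genes kept Chd8 (21.6%), beside 16.7% of all coding genes, and with removal of any peak shared with any of the 3 inputs 7 did (13.7%, beside 13.1%). A peak of at least 1 input stood at 43 of the 51 genes (84.3%, beside 55.1%).

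**Figure D1:**
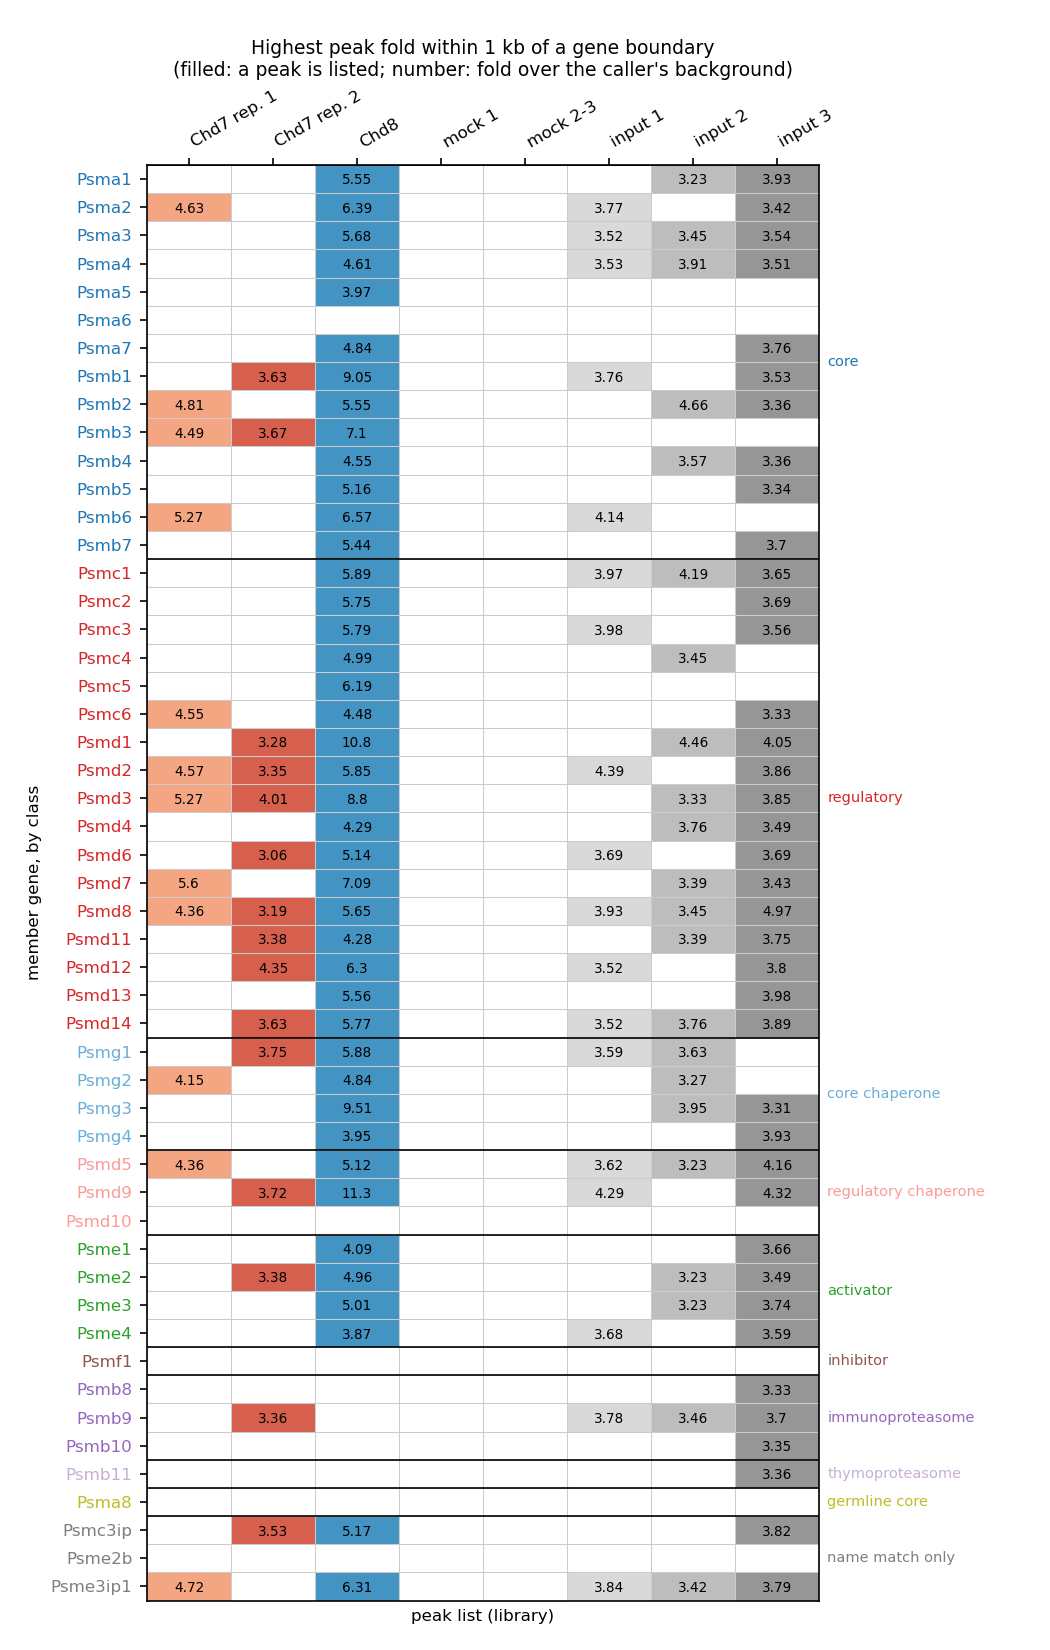
Peaks at the ends of the 51 genes, with genes in rows by class and libraries in columns. A filled cell marks a listed peak, and its number is the fold of the highest peak over the caller's background. Colour follows the library and not the fold, and an empty cell means no listed peak. The Chd8 column is filled for 42 genes, the mock columns for none, and the input 3 column for 39.

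Of the 14 core particle genes, 13 had Chd8 at an end (92.9%, 66.1 to 99.8), beside 41% of all coding genes. Input 3 had a peak at 10 of the 14 (71.4%, beside 45.2%). With Chd8 peaks overlapping input 3 removed, 4 kept Chd8 (28.6%, beside 16.7%). The same number was left when those overlapping any input were removed (beside 13.1%). All 7 beta genes and 6 of the 7 alpha genes were called, and the exception was Psma6. Psmb1, a beta subunit without a catalytic site, had the highest fold in the class, 9.05, at chr17:15497849-15498815. Its other peaks had folds of 3.63 in Chd7 replicate 2, 3.76 in input 1 and 3.53 in input 3, and none was listed in Chd7 replicate 1, input 2 or the mocks. Psmb3, another non-catalytic beta subunit, had a Chd8 fold of 7.1, Chd7 folds of 4.49 and 3.67 in replicates 1 and 2, and no input peak at either end. It was the highest core gene with no input peak at all. The Chd8 peak, chr11:97702488-97703590, also covers the end of its neighbour Pcgf2.

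The 3 catalytic core genes all had Chd8, at folds below those of Psmb1 and Psmb3. Among the remaining beta genes, Psmb2 had 5.55, below Psmb6, and Psmb4 had 4.55, below all 3. Psmb6, which carries the caspase-like site, had 6.57 for Chd8, 5.27 for Chd7 replicate 1 and 4.14 for input 1, with no peak in Chd7 replicate 2 or inputs 2 and 3. Psmb7, with the trypsin-like site, had 5.44 for Chd8 and 3.7 for input 3, and no other peak. Psmb5, with the chymotrypsin-like site, had 5.16 for Chd8 and 3.34 for input 3, and again no other. Among alpha genes the highest Chd8 fold was that of Psma2, 6.39, beside 4.63 in Chd7 replicate 1, 3.77 in input 1 and 3.42 in input 3. At the low end, Psma5 had a Chd8 fold of 3.97 with no peak in any other library, close to the lowest fold of the Chd8 list, 3.81.

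All 17 regulatory particle genes had Chd8 (100%, 80.5 to 100), beside 41% of all coding genes. That was 6 of 6 ATPase genes and 11 of 11 others. Input 3 had a peak at 15 of the 17 (88.2%, beside 45.2%). With Chd8 peaks overlapping input 3 removed, 4 kept Chd8 (23.5%, beside 16.7%). With those overlapping any input removed, 2 did (11.8%, beside 13.1%). Psmd1, the large scaffold subunit of the base, had a fold of 10.8 at chr1:86064255-86064942, higher than at 99.6% of the coding genes with Chd8. Its highest folds elsewhere were 3.28 in Chd7 replicate 2, 4.46 in input 2, at the far end of the gene, and 4.05 in input 3, at the start. Psmd3, a subunit of the lid, followed with 8.8, and Psmd7, the partner of the deubiquitinase Psmd14, with 7.09. Psmd7 had 5.6 in Chd7 replicate 1, 3.39 in input 2 and 3.43 in input 3, and no peak in Chd7 replicate 2 or input 1. The ATPase genes were more even, from 4.48 for Psmc6 to 6.19 for Psmc5, and Psmc5 had no input peak. The intervals of the core and regulatory shares overlap widely, so at this number of genes no difference in Chd8 between the particles can be read.

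The assembly chaperone genes ranged from the strongest Chd8 peak of the set to some of the weakest. Psmd9, which escorts an ATPase pair of the base, had the highest Chd8 fold of all 51 genes, 11.3, at chr5:123228108-123228504. The other libraries gave Psmd9 3.72 in Chd7 replicate 2, 4.29 in input 1 and 4.32 in input 3. Psmg3, which helps to build the alpha ring, had 9.51 for Chd8, with input folds of 3.95 (input 2) and 3.31 (input 3) at its far end and 3.8 (input 2) at its start. The other core chaperone genes had 5.88 (Psmg1), 4.84 (Psmg2) and 3.95 (Psmg4), and the median of the 4 was 5.36, below the 5.56 of all proteasome genes with Chd8. Of the regulatory chaperones Psmd5 (5.12) and Psmd9 were called, and Psmd10 had no peak in any list.

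The 4 activator genes all had Chd8, beside 41% of all coding genes, at folds from 3.87 to 5.01. Psme1 and Psme2 encode the interferon-inducible activator that works with the immunoproteasome, and they had 4.09 and 4.96. Psme2 also had 3.38 in Chd7 replicate 2, 3.23 in input 2 and 3.49 in input 3, and Psme1 had 3.66 in input 3 only. Psme3, the nuclear relative of these, had 5.01, with 3.23 and 3.74 in inputs 2 and 3. Psme4, another nuclear activator, had 3.87, with 3.68 and 3.59 in inputs 1 and 3. The activator median of 4.52 lay below the median of all coding genes with Chd8, 4.85, whereas that of the regulatory particle was 5.77 and that of the core 5.55.

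**Figure D2:**
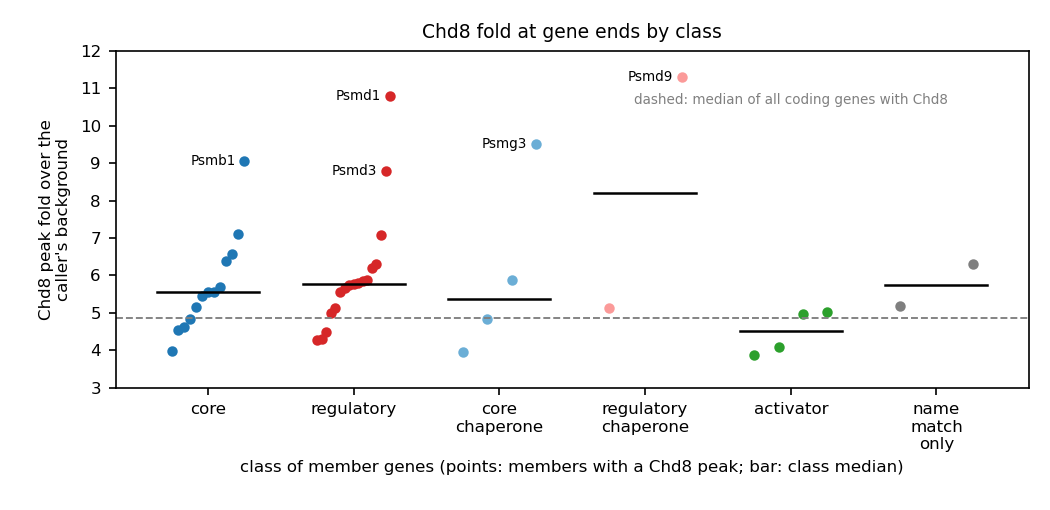
Chd8 fold over the caller's background (vertical axis) for each gene with a Chd8 peak at an end, by class; bars are class medians and the dashed line is the median of all coding genes with Chd8. Psmd9, Psmd1, Psmg3, Psmb1 and Psmd3 stand above 8, and the activators lie between 3.87 and 5.01.

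Over the 42 genes with Chd8 the median fold was 5.56 (range 3.87 to 11.3), beside 4.85 over the 8966 coding genes called. The highest 10 were Psmd9, Psmd1, Psmg3, Psmb1, Psmd3, Psmb3, Psmd7, Psmb6, Psma2 and Psme3ip1. Psme3ip1, a binding partner of Psme3 matched by name alone, had 6.31 for Chd8, 4.72 in Chd7 replicate 1 and 3.84, 3.42 and 3.79 in inputs 1 to 3. Psmc3ip, a meiotic recombination factor despite its symbol, had 5.17. The copy Psme2b had no peak in any list.

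The immunoproteasome genes Psmb8, Psmb9 and Psmb10 and the tissue-restricted Psmb11 and Psma8 had no Chd8 at their ends. Counted together with the interferon-inducible activator genes Psme1 and Psme2, which did, the immunoproteasome group had Chd8 at 2 of 5 (40%, 5.27 to 85.3), beside 41% of all coding genes. In all, 8 of the 51 genes had neither Chd7 nor Chd8 there (15.7%, beside 57.1% of all coding genes): Psmb8, Psmb10, Psmb11, Psma6, Psma8, Psmd10, Psmf1 and Psme2b. Psmb8 and Psmb10, the induced counterparts of Psmb5 and Psmb7, had an input 3 peak (3.33 and 3.35) and nothing else. Psmb9, the counterpart of Psmb6, had a Chd7 replicate 2 peak of 3.36 and peaks in all inputs, 3.78, 3.46 and 3.7. That Chd7 peak, chr17:34187161-34188126, is shared with the neighbouring peptide transporter gene Tap1, and at −log10 q 1.74 it lies near the lowest value of that list, 1.3. Psmb11 had only an input 3 peak of 3.36, and Psma8 had none. For the immunoproteasome, 0 of 3 genes allows a share of up to 70.8%, which includes the 41% of all coding genes. Its difference from the constitutive subunits rests on these 3 genes. Psmb10 had a Chd8 peak of fold 4.5 just outside the window, at chr8:105937053-105937275 inside the gene, 1117 bp from its start at the nearest. With a window of 5 kb, Psmb10 was called for Chd8.

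**Figure D3:**
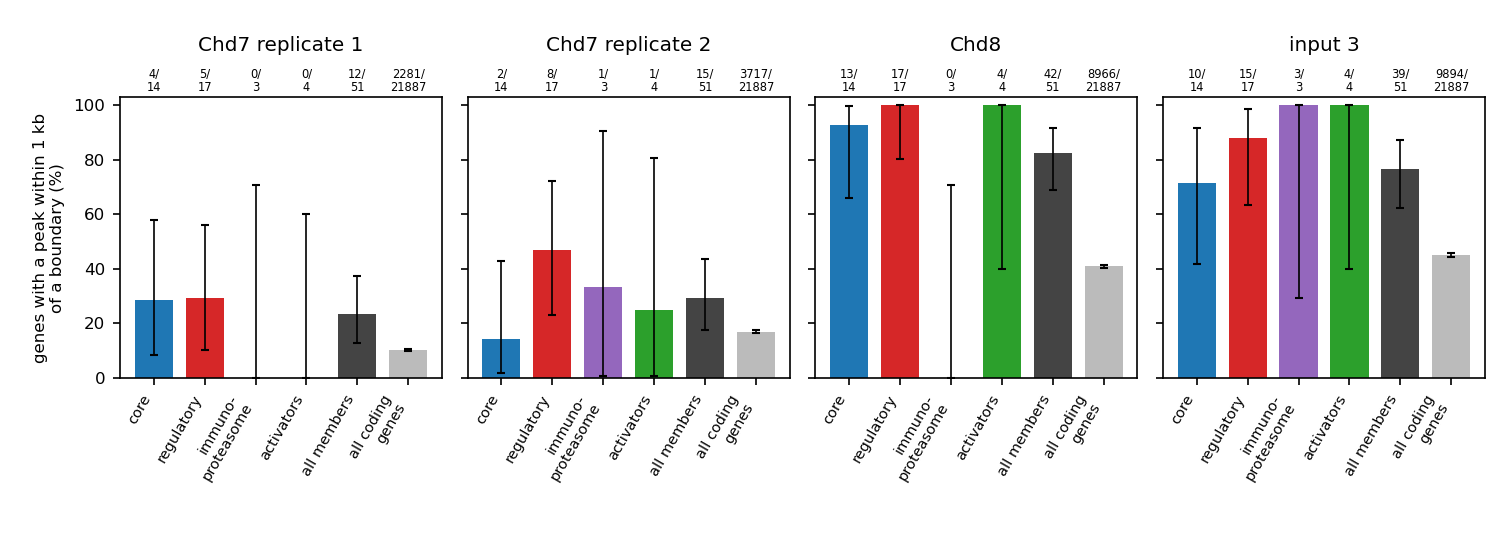
Share of genes in each class with a peak at a gene end, in percent, for the Chd7 and Chd8 lists and input 3, with exact 95% intervals and the share of all coding genes beside them. Chd8 reaches 92.9% of core and 100% of regulatory genes and none of the 3 immunoproteasome genes, beside 41% of all coding genes. Reproducible Chd7, which is not drawn, is listed at 3 genes, all regulatory, a share of 5.88% of the 51 beside 4.83% of all coding genes.

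Some calls depended on where the start of the gene was placed. The window was placed at the outer boundaries of each gene, and several genes have an annotated start well inside them. Psmf1 had no peak at its boundaries, but its annotated start at chr2:151741310, 2889 bp inside, lay under a Chd8 peak of fold 7.23 (chr2:151740980-151741551) with no Chd7 or input peak there. Psma6 has a second start at chr12:55398825, 14603 bp inside, under a Chd8 peak of 5.31 (chr12:55398557-55399218), with input peaks of 3.64, 3.62 and 3.34. Psmc2 had Chd8 at a boundary with 5.75 and a stronger peak of 7.88 at its second start. With either boundaries or annotated starts counted, 44 of 51 genes had Chd8 (86.3%, beside 44.2% of all coding genes), among them 14 of 14 core and 17 of 17 regulatory genes. The genes left without it were Psmb8, Psmb9, Psmb10, Psmb11, Psma8, Psmd10 and Psme2b. This count was added after the data were seen.

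Where strand and start were known, the Chd8 peaks sat at the start of transcription. For all 35 genes whose peak could be placed, the nearest end was the 5′ end (beside 94.8% of all coding genes), and 32 of the 35 peaks covered the start itself (91.4%, beside 67%). The median distance from peak centre to start was 96.5 bp, beside 170 bp over all genes, at a similar median width of 539 and 529 bp. Input 3 peaks covered the start at 20 of 33 genes (60.6%, beside 44.4%), at a median distance of 255 bp. At 13 of the 42 genes (31%, beside 29.7%) the Chd8 peak also lay at the end of another coding gene, such as Sirt3 beside Psmd13, Rnf31 beside Psme2 and Mrpl32 beside Psma2, and it cannot then be given to either gene alone.

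**Figure D4:**
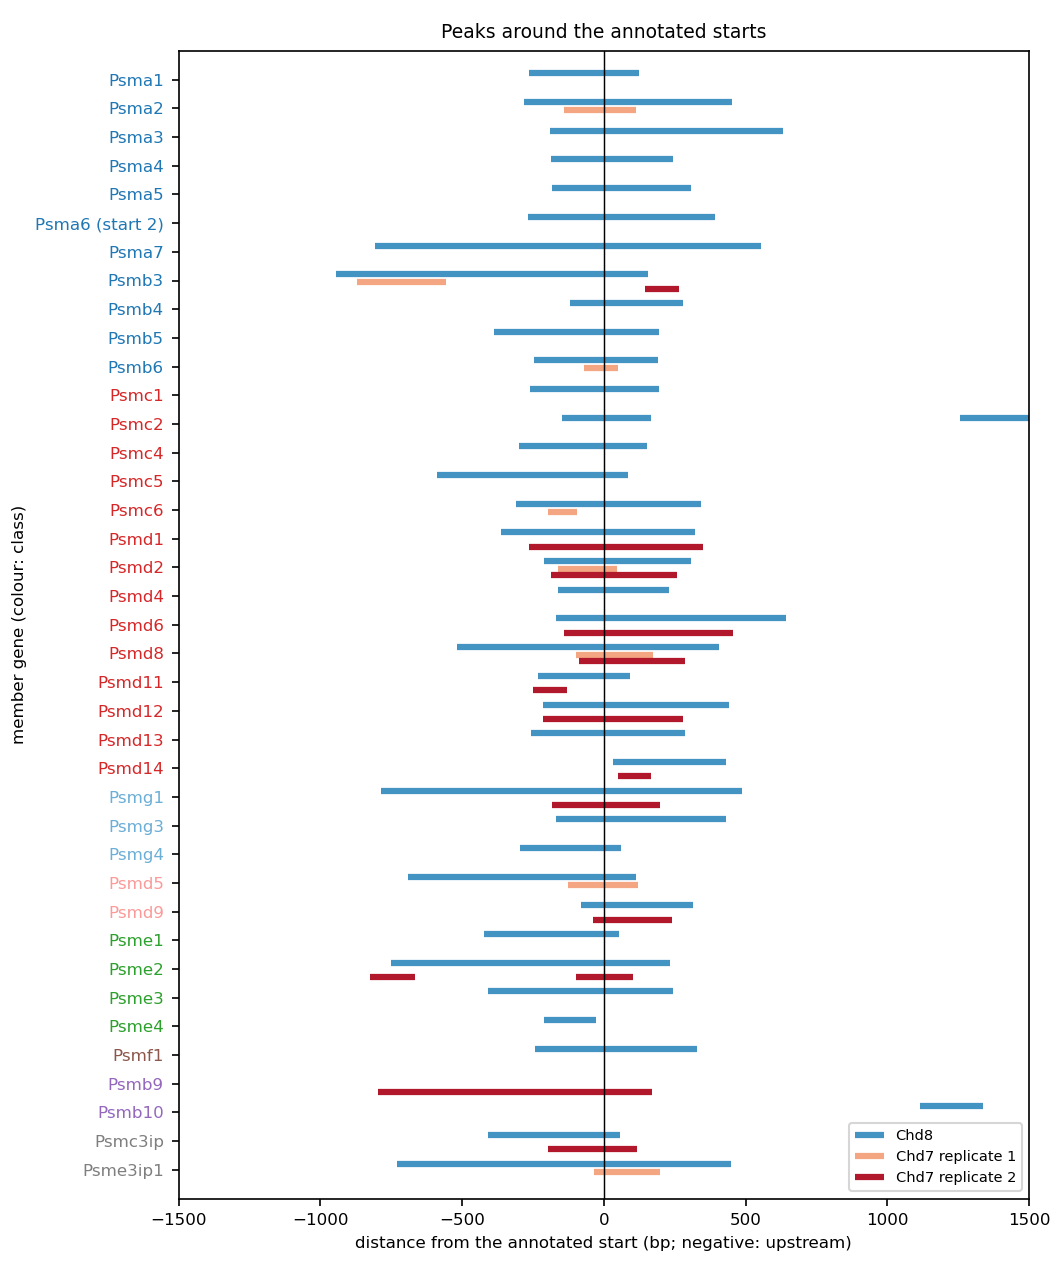
Extent of the Chd8 and Chd7 peaks around the annotated start of each gene, as distance in bp along the direction of transcription, 1 row per gene with a known start and a peak within view. Chd8 spans lie over the start in nearly every row. The median centre distance of 96.5 bp is that of the 35 peaks at gene boundaries. Those include the Psma3 boundary peak, which is out of view, and not the drawn peaks away from the boundaries.

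Chd7 was listed at fewer of these genes, and its 2 libraries had 4 of them in common. Replicate 1 had a peak at 12 of the 51 (23.5%, 12.8 to 37.5), beside 10.4% of all coding genes, and replicate 2 at 15 (29.4%, 17.5 to 43.8), beside 17%. A peak of either replicate stood at 23 genes (45.1%, beside 22%), and 22 of these also had Chd8 (43.1%, beside 20%); the exception was Psmb9. Peaks of both replicates overlapped each other, which is what is called reproducible here, at 3 genes (5.88%, 1.23 to 16.2), beside 4.83% of all coding genes, so the reproducible share was close to the background. At annotated starts alone the count was 2 of 43, beside 5.23%. The intervals of the single libraries begin just above their backgrounds, and the median folds were 4.6 and 3.53, beside 4.55 and 3.38 over all genes called. Among genes with an input 3 peak, the shares were 23.1% in replicate 1, beside 18.4%, and 33.3% in replicate 2, beside 30.7%. Without one, 3 of 12 (25%, 5.49 to 57.2) and 2 of 12 (16.7%, 2.09 to 48.4) were called, beside 3.88% and 5.69%. The interval of replicate 2 covers its background. Input 3 is paired with Chd8 and not with Chd7, so genes without its peak can still have a peak of the input paired with Chd7. Psmg1, for example, had peaks of inputs 1 and 2 and a replicate 2 peak. The mocks had no peak at any of the 51 genes, which allows a share of up to 6.98%, beside 0.0183% and 0.0137% of all coding genes.

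The 3 genes with reproducible Chd7, Psmd2, Psmd3 and Psmd8, all encode non-ATPase subunits of the regulatory particle, and all had Chd8 as well (3 of 51, beside 4.77% of all coding genes). Psmd3 had folds of 5.27 and 4.01 in Chd7 replicates 1 and 2, with −log10 q of 3.19 and 2.62, and 8.8 in Chd8. The merged Chd7 region, chr11:98682350-98682807, lies inside the Chd8 peak, chr11:98682168-98682886. Its highest input peaks at an end were 3.33 (input 2) and 3.85 (input 3). Psmd2, the other large scaffold of the base, had 4.57 and 3.35 in Chd7 and 5.85 in Chd8, with a Chd7 region at chr16:20651465-20651912, and 4.39 and 3.86 in inputs 1 and 3. Psmd8, a small lid subunit, had 4.36 and 3.19 in Chd7 and 5.65 in Chd8, with a Chd7 region at chr7:29180386-29180771 that it shares with Catsperg1, and 3.93, 3.45 and 4.97 in the inputs. The replicate 2 peaks of Psmd2 and Psmd8 were faint, with −log10 q of 1.66 and 1.45. None of the 3 regions was left when each replicate's peaks overlapping its matching input were removed before the replicates were compared. Loss of the peak of either replicate is enough to lose a region. Psmd3 had no input 1 peak and Psmd2 no input 2 peak at an end.

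By role, Chd7 replicate 2 had a peak at 8 of the 11 non-ATPase genes of the regulatory particle (72.7%, 39 to 94) and at 0 of the 6 ATPase genes (0 to 45.9%), beside 17% of all coding genes. Replicate 1 had 4 of 11 (36.4%, 10.9 to 69.2) and 1 of 6 (16.7%, 0.421 to 64.1), beside 10.4%. The intervals of these groups overlap in both replicates, and the difference was not tested. The non-ATPase genes with a replicate 2 peak were Psmd1, Psmd2, Psmd3, Psmd6, Psmd8, Psmd11, Psmd12 and the deubiquitinase Psmd14. Among core genes replicate 1 had 4 of 14 (28.6%) and replicate 2 had 2 of 14 (14.3%), and no core gene had a reproducible region, which allows up to 23.2%. Both replicates had a peak at Psmb3, but at chr11:97702564-97702878 and chr11:97703578-97703699, which do not overlap. By the titles, input 2 is paired with Chd7 replicate 2. It had a peak at 7 of the 11 non-ATPase and 2 of the 6 ATPase genes, beside 28.4% of all coding genes. An input 3 peak stood at all 11 non-ATPase and 4 of the 6 ATPase genes, beside 45.2%. The difference between the replicates in the regulatory particle (5 of 17 against 8 of 17) is within their intervals, 10.3 to 56% and 23 to 72.2%.

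Input peaks moved with the Chd8 calls, as they did genome-wide. Among members with an input 3 peak at an end, 35 of 39 had Chd8 (89.7%, 75.8 to 97.1), beside 66.3% of all such coding genes. Without one, 7 of 12 did (58.3%, 27.7 to 84.8), beside 20.1%. At genes free of any input peak Chd8 stood at 3 of 8 members (37.5%, 8.52 to 75.5), beside 14.9%, namely the core genes Psma5 and Psmb3 and the ATPase gene Psmc5. At genes with a peak of every input it stood at 7 of 8 members (87.5%, 47.3 to 99.7), beside 83%. The proteasome genes had the higher share on both sides of the input 3 split. In the groups with no input peak and with every input peak, the interval covers the background. The part of input in the Chd8 share was not tested. The 11 genes with a Chd8 peak that touched no input 3 peak were Psma3, Psma5, Psmb3 and Psmb6 of the core, the ATPase genes Psmc1, Psmc2, Psmc4 and Psmc5, and the chaperone genes Psmg1, Psmg2 and Psmg3. No Psmd gene was among them. If inputs 2 and 3 are exchanged, as the track names would have it, 27 genes kept Chd8 (52.9%, beside 29.1%).

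**Figure D5:**
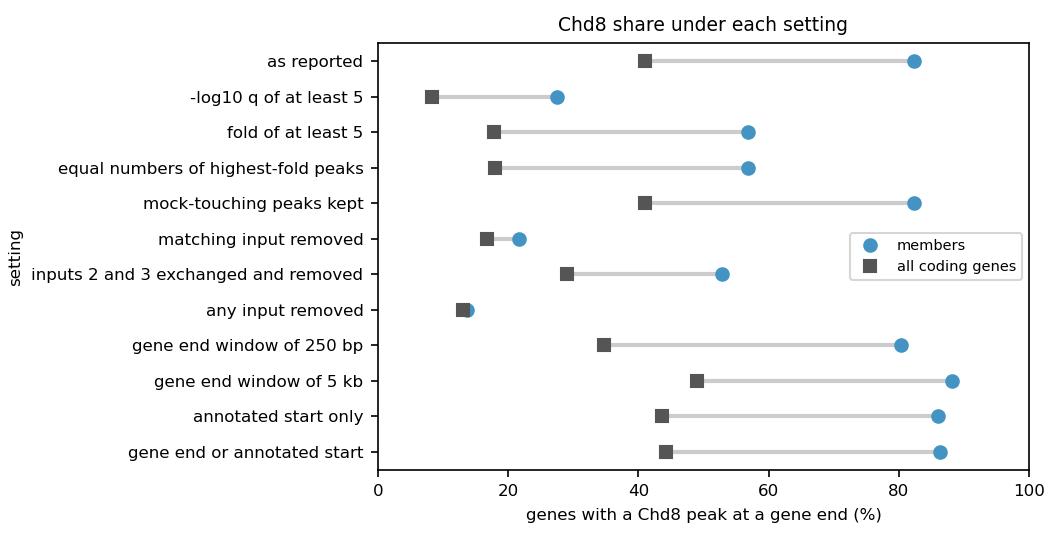
Share of genes with Chd8 at an end (horizontal axis, percent) under each way of choosing peaks and windows, for the 51 proteasome genes (circles) and all coding genes (squares). The gap is 82.4 against 41% as reported and narrows to 21.6 against 16.7% when peaks in the matching input are removed.

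The promoters of these genes were rich in CpG. Where a gene has several annotated starts, only the promoter at the start nearest its 5′ boundary was used. In the RefSeq promoter table, 43 of the 51 genes were found, and their median ratio of observed to expected CpG was 0.763, beside 0.577 over the 17492 coding genes of the table. A ratio of at least 0.6, a usual mark of a CpG island promoter, was reached by 30 of 43 (69.8%, beside 48.4%). Chd8 stood at 29 of these 30 (96.7%, 82.8 to 99.9), beside 68.2% of all coding genes in that class, and the exception was Psmf1, whose Chd8 peak lies at its inner start. Of the CpG-poor promoters 6 of 13 had Chd8 (46.2%, 19.2 to 74.9), beside 16.6%. The ratio was 0.523 for Psmb8, 0.6 for Psmb9 (just under the threshold before rounding) and 0.192 for Psmb10. For Chd7 the CpG-rich promoters gave 8 of 30 (26.7%, beside 18.9%) in replicate 1 and 10 of 30 (33.3%, beside 30.5%) in replicate 2. The part of CpG content in the Chd8 share was not tested beyond this split.

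The motifs were searched in the same promoter windows on both strands. The inner second starts of the core gene Psma6 and of Psmc2 were therefore not searched. The ETS core CCGGAAG was found mostly in regulatory particle genes. It occurred in 15 of 43 promoters (34.9%, 21 to 50.9), beside 11.9% of all promoters in the table. The regulatory particle held it in 9 of 14 (64.3%, 35.1 to 87.2): Psmc1, Psmc2, Psmc6, Psmd2, Psmd4, Psmd6, Psmd11, Psmd12 and Psmd13. The core particle held it in 0 of 11, which allows up to 28.5%; the split by class was noticed in the data and not tested. The other carriers were Psmg1, Psmg3, Psme3, Psme4, Psmc3ip and Psme3ip1. The 18 matches were centred from 122 bases before to 18 bases after the start, with 12 within 60 bases of it. All 15 genes had Chd8, beside 73.2% of all coding genes with the match and 37.3% of those without. Members without the match had Chd8 at 20 of 28 (71.4%).

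The antioxidant response element core TGACNNNGC, read by Nfe2l1 and Nfe2l2, was found in 6 of 43 promoters (14%, beside 13.1%): Psmb5, Psmb6, Psmc6, Psmd9, Psmd12 and Psme4. The nuclear respiratory factor letters GCGCATGCG occurred in 2 (4.65%, beside 2.41%), Psma2 and Psmg1, and the Yy1 letters AAGATGGC in 3 (6.98%, beside 3.21%), Psma2, Psmb6 and Psmc5. CCAAT, bound by NF-Y, occurred in 16 (37.2%, beside 39.2%). GAAANNGAA, the core of the interferon-stimulated element, occurred in 6 (14%, beside 8.24%): Psmb3, Psmb4, Psmd4, Psmd9, Psme1 and Psmg4, and in no immunoproteasome gene. The Sp and Klf letters GGGCGG occurred in 24 (55.8%, beside 46.3%) and the E-box CACGTG in 5 (11.6%, beside 7.91%). The CRE TGACGTCA and the Zfp143 letters ACTACAATT occurred in none, beside 2.33 and 0.543% of all promoters. Matches of different motifs overlapped in 2 promoters, Psmd9 (GGGCGG with TGACNNNGC) and Psme4 (CCGGAAG with GGGCGG). A match is a stretch of letters in this window, not a measured binding site.

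A fixed list of 30 other genes of the ubiquitin-proteasome pathway, of which 29 matched, was counted in the same way. Chd8 stood at 23 of 29 (79.3%, 60.3 to 92, beside 41% of all coding genes), and an input 3 peak at 19 (65.5%, beside 45.2%). The highest Chd8 folds were those of Sem1, the smallest subunit of the regulatory particle (8.77), the polyubiquitin gene Ubb (7.29) and Ufd1, a cofactor of the unfoldase Vcp (7.13). Nfe2l1 had 6.01, the ubiquitin receptor Adrm1 6.35 and the assembly factor Pomp 5.07. Reproducible Chd7 stood at 3 genes (10.3%, 2.19 to 27.4, beside 4.83%): the deubiquitinase Uchl5, the ubiquitin precursor Rps27a and the shuttle receptor Rad23b. Each also had input peaks. In inputs 1 to 3, Uchl5 had 3.97, 3.44 and 3.55 and Rad23b had 3.96, 3.73 and 3.72, and Rps27a had 3.23 in input 2 only. This list was not recounted after input removal. Without Chd8 were Ngly1, Ecpas, Nploc4, Ubqln2 and the peptide transporter genes Tap1 and Tap2, which serve antigen presentation together with the immunoproteasome.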

How the data were processed

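ChIP-seq peak lists of 8 libraries were used, grouped by title into Chd7 (2), Chd8 (1), mock (2) and input (3). Bowtie2, SAMtools, Picard and MACS, with mm10, are listed in the submitters' processing notes without versions, and the caller's settings and controls were not stated there. Per peak, the deposited lists hold a score, a fold (ratio over the caller's background, computed by the authors) and the −log10 p and −log10 q of the authors' caller. Precision is set by the number of genes, since depth is unknown. Peaks touching a mock peak by at least 1 bp were removed, and the rest assigned to RefSeq gene boundaries within 1 kb; starts, strand and promoters came from RefSeq (GRCm38.p6). Shares carry exact 95% intervals, computed in Python 3.11.15 with pandas 2.3.3 and SciPy 1.17.1, after the overlap step was tested on simulated peaks. Genes and lists were chosen with earlier results of these data known. Values in every list are given for genes with reproducible Chd7, the 10 highest Chd8 folds, genes without Chd8, the activators, immunoproteasome and restricted subunits, and the catalytic subunits; other genes named serve a count. Alternatives varied peak thresholds, mock and input removal, windows, starts and replicate overlap.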

Additional observations from a re-analysis of the deposited data

How the results depend on the processing

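Chd8 at proteasome gene ends (42 genes; 13 core, 17 regulatory; median fold 5.56) and reproducible Chd7 (3 genes; 0 core, 3 regulatory; 3 with Chd8) were recomputed under each alternative. As reported, 41% of all coding genes had Chd8, with a median fold of 4.85, and 4.83% had reproducible Chd7. Values after "beside" are those of all coding genes under the same alternative. With −log10 q of at least 5, Chd8 stood at 14 genes (27.5%, beside 8.28%), 4 of them core and 6 regulatory. The median was 6.83, beside 6.57. Chd7, alone or with Chd8, stood at 0, also for regulatory genes, and at 0 of all coding genes. With fold of at least 5, Chd8 kept 29 genes (56.9%, beside 17.8%), with a median of 5.85, beside 5.75. Chd7 again stood at 0, alone, with Chd8 and among regulatory genes, beside 0.0137%. Equal list lengths gave 29 genes (56.9%, beside 18%) and a median of 5.85, beside 5.74. Removal of peaks in the matching input left Chd8 at 11 genes (21.6%, beside 16.7%), 4 core and 4 regulatory, with a median of 5.88, beside 4.58. Exchanging inputs 2 and 3 left 27 (52.9%, beside 29.1%), 11 of them regulatory, with a median of 5.55, beside 4.73. Removing peaks of any input left 7 (13.7%, beside 13.1%), 4 core and 2 regulatory, with a median of 5.75, beside 4.5. All of these input removals left reproducible Chd7 at 0 genes, 0 regulatory, and 0 with Chd8. Beside this, 1.75, 0.758 and 0.539% of all coding genes kept reproducible Chd7, in the same order. Windows of 250 bp and 5 kb each gave a Chd8 median of 5.55, beside 4.91 and 4.89, and starts alone 5.37, beside 4.86. The 5 kb window, and counting each replicate's own peak without overlap, each put Chd7 at 1 core gene (7.14%, beside 6.22 and 5.45%). With 1 Chd7 replicate left out, Chd7 stood at 12 to 15 genes, 12 to 14 with Chd8, 2 to 4 core and 5 to 8 regulatory. The 12 genes of replicate 1 were 23.5%, beside 10.4%, and the 15 of replicate 2 were 29.4%, beside 17%. Chd8 calls stood in every alternative at 3 of 42 genes, Psmb3, Psmb6 and Psmc5. Counting boundaries or starts was an alternative chosen after seeing the data. No paired analysis was possible because the results come from no test and Chd8 has 1 library. Depth sets what a list can hold, and it is unknown here.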

Other observations

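Apart from the peaks at their own ends, 6 proteasome genes had a Chd8 peak inside the gene, and 4 of these genes (Psmf1, Psma6, Psma3 and Psmc2) have an annotated inner start there. Within 10 kb outside the genes, 18 Chd8 peaks lay near 13 genes, and 4 of the peaks were at no coding gene end. Of the 18, 3 are peaks at the end of another proteasome gene and counted there already (Psmb5 near Psmb11, and Psme1 and Psme2 near each other). In the same space Chd7 had 3 peaks outside the genes for replicate 1, and 2 inside and 5 outside for replicate 2. None of these counts was made over all coding genes, so they cannot be called high or low. Psma3 had its boundary peak (Chd8 fold 5.68) upstream of its annotated start at chr12:70974623, which carried a peak of its own (5.37).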
